A study of Monodelphis domestica and Mus musculus with 26 samples.

Results

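Genes of the CSF1 receptor axis and of the complement and antigen-presentation programme of macrophages were followed through the testis of mouse and opossum. The 10 genes were the ligands CSF1 and IL34, their receptor CSF1R, the C1q chains C1QA, C1QB and C1QC, the central complement component C3, the class II invariant chain CD74, the class I light chain B2M and the adaptor TYROBP. They were found by symbol, ignoring case, in the deposited gene tables. All 10 were present among 32532 mouse features, and 6 (CSF1R, C1QA, C1QC, C3, CD74 and B2M) among 32251 opossum single-cell features, of which 11523 carried a gene name. The same 6 were named among the 34985 genes of the opossum bulk tables. CSF1, IL34, C1QB and TYROBP had no named opossum feature and were not analysed in that species.

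CSF1 and IL34 are secreted ligands that share the receptor tyrosine kinase CSF1R, on which tissue macrophages depend for survival and differentiation. C1q, built from A, B and C chains, is the recognition molecule of the classical complement pathway and is made largely by macrophages, and its cascade leads to cleavage of C3. In the testis, macrophages lie in the interstitium beside the Leydig cells and on the outer surface of the seminiferous tubules, while germ cells are known for low class I antigen presentation.

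The study compared testis gene expression of mouse and the gray short-tailed opossum, a marsupial. Single-cell libraries (10x Genomics 3′ chemistry) were made from 3 adult C57BL6/J mouse samples, aged 8 to 16 weeks per the labels, and from 3 adult opossum samples. Bulk opossum testis was sequenced at 1 month (2 libraries), 2 months (4), 3 months (4), 4 months (3) and adulthood (7). The animals were untreated as far as the labels say, no opossum strain or exact adult age is given, and testes were dissociated with collagenase and trypsin. The labels do not say that each library came from a separate animal, so p-values measure only the spread between these libraries.

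The single-cell matrices summed to between 45395185 and 65263953 estimated counts per mouse library and between 22710048 and 37747724 per opossum library, and 7208 to 8714 mouse and 5126 to 7476 opossum cells per library were kept. Cells were clustered without the 10 genes and named from marker lists that hold none of them. The class called immune-like held 56, 19 and 5 cells in the mouse libraries (replicates 1 to 3) and 142, 407 and 538 in those of opossum, which was 0.748%, 0.264% and 0.0574% of mouse cells and 2.77%, 5.44% and 7.27% of opossum cells. In it, 11 of 12 macrophage markers had counts in mouse, and MARCO was at 0. The summed macrophage list stood at 5779, 3086 and 399.7 counts per 1000000 counts of the class (CPM) in mouse replicates 1 to 3 and at 4594, 4758 and 3662 CPM in opossum. The sums covered the 12 genes found in mouse and the 8 found in opossum, so they are of unlike sets. The 5 mouse replicate 3 cells stood apart, and the elongating-spermatid list summed to 168150 CPM in them, against 36837 and 37941 CPM in replicates 1 and 2. Mouse replicates 1 and 2 shared 198 cell barcodes with each other and at most 2 with any other library. Mouse replicate 3 and the opossum libraries shared 30 to 43 per pair. This grouping moves in part with species, and what it reflects was not tested. The part of spermatid RNA and of shared barcodes in the values that follow was not tested.

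In mouse, Csf1 was spread over stromal-like, endothelial-like and Leydig-like cells, and Il34 was highest per class sum in endothelial-like cells, which had both ligands. Csf1 (chr3:107648364-107667806, GRCm39, minus strand), the broadly acting ligand, stood at 138, 171 and 110.5 CPM in peritubular or stromal-like cells of replicates 1 to 3. Endothelial-like cells followed at 64.9, 35.4 and 116 CPM, with only 3 such cells in replicate 3. Leydig-like cells were at 29.7, 33.1 and 58.5 CPM. The stromal and Leydig ranges did not overlap, whereas the endothelial range overlapped both. Csf1 was at 0 in Sertoli-like and immune-like cells of all 3 libraries and at most 0.821 CPM in any germ-cell class. Stromal-like cells held 57.2%, 59.8% and 56.1% of all Csf1 counts in named classes, and Leydig-like cells held 24.6%, 34.0% and 27.4%. In the immune-like class, a count of 0 allows up to 14.3 CPM (3 counts of 209751, counting error only). An estimated count of 0 need not mean that no molecule was read, since the deposited matrices list entries at 0.

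Il34 (chr8:111423928-111532584, minus strand), the second ligand, was highest in endothelial-like cells. Its level there was 107 CPM in replicate 1, 69.2 CPM in replicate 2 and 0 in the 3 cells of replicate 3. No other class exceeded 5.44 CPM in any library. By share of counts the order differed: endothelial-like cells, being few, held 29.8%, 12.8% and 0% of all Il34 counts in replicates 1 to 3, round spermatids 41.9%, 26.7% and 60.3%, and spermatocytes 16.3%, 47.7% and 27.4%. In the libraries with at least 20 endothelial-like cells the gene therefore lay above every other class, and in the third library it could not be placed. The gene body overlaps Vac14 and Mtss2 on the other strand, and whether counting used the strand is not given in the sources used here.

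**Figure D1:**
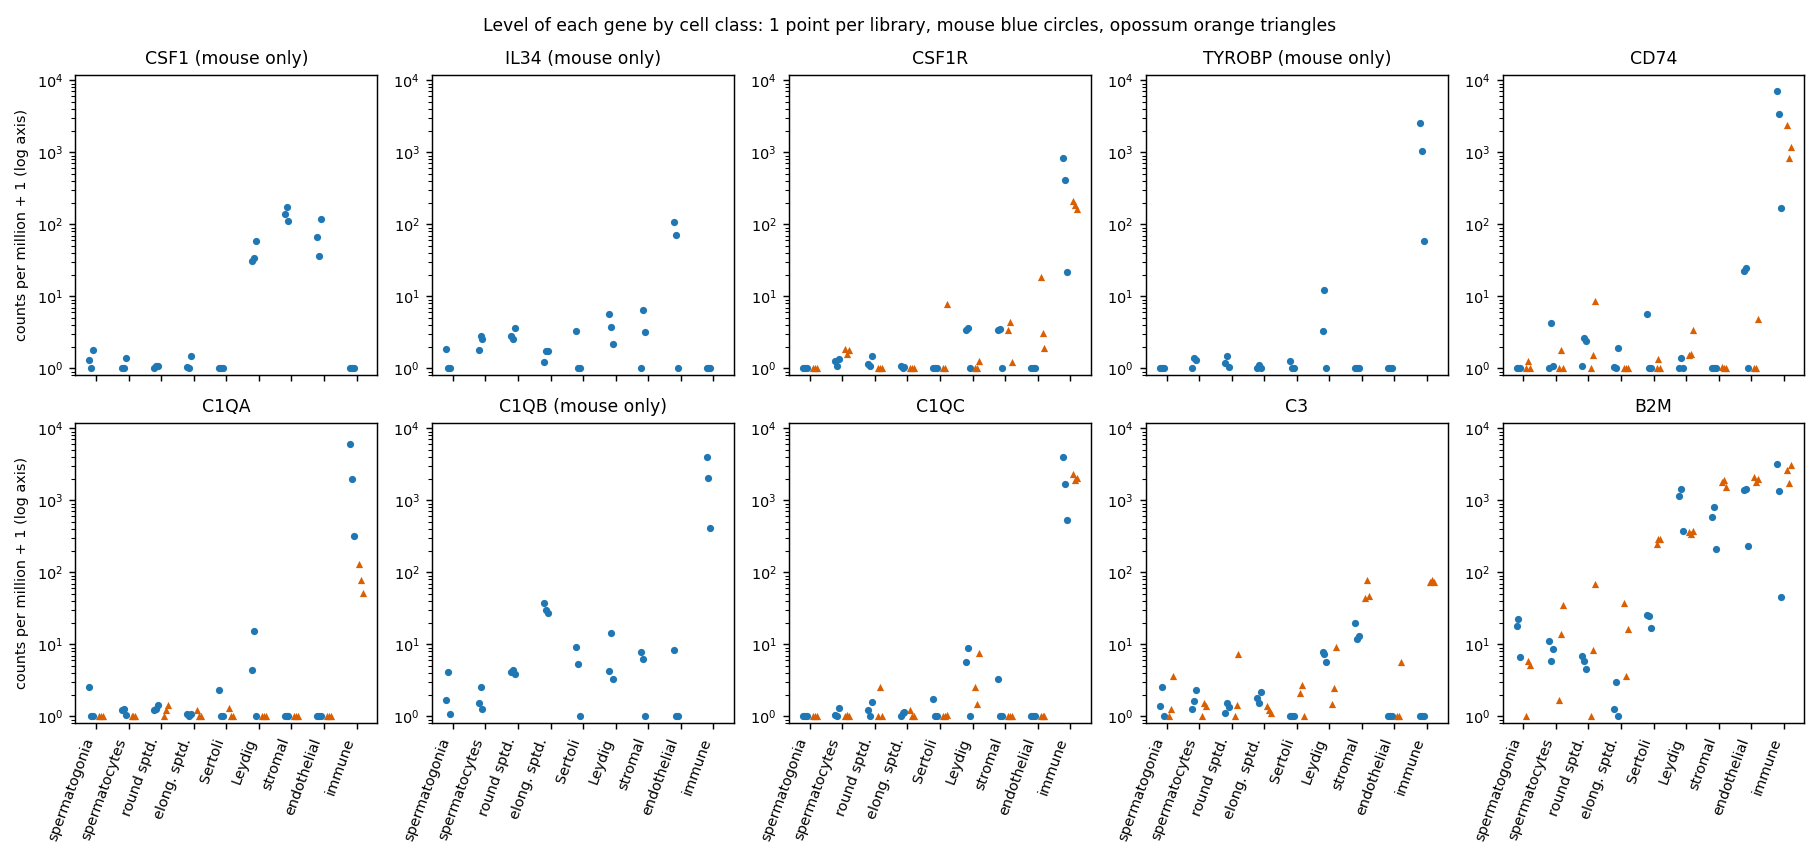
Level of each gene by cell class in mouse and opossum, in CPM of the class sum on a logarithmic axis; points are single-cell libraries. Csf1 is highest in mouse stromal-like cells in replicates 1 and 2 and in the 3 endothelial-like cells in replicate 3, and Il34 in endothelial-like cells in replicates 1 and 2 only. The C1q chains, Csf1r, Cd74 and Tyrobp are highest in immune-like cells, while B2m is spread over the somatic classes.

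The receptor was highest per class sum in immune-like cells of both species. Mouse Csf1r stood at 821, 415 and 20.8 CPM in immune-like cells of replicates 1 to 3 and at most 2.68 CPM in every other class. Opossum CSF1R stood at 208, 183 and 162 CPM in immune-like cells. Outside them it stood at 17.5, 2.07 and 0.926 CPM in endothelial-like cells and 2.41, 3.35 and 0.234 CPM in stromal-like cells, ranges that overlapped, and at 0, 0 and 6.81 CPM in Sertoli-like cells. Immune-like cells held 93.9%, 95.7% and 96.5% of opossum CSF1R counts. In mouse they held 90.2%, 66.1% and 6.78% in replicates 1 to 3. In replicate 3, with 5 immune-like cells and 12.7 Csf1r counts in all, round spermatids held 59.04% and spermatocytes 31.0%. Mouse Csf1r lies at chr18:61229714-61266535 (GRCm39, plus strand).

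Tyrobp (chr7:30113170-30117010, plus strand), the signalling adaptor of several macrophage receptors, followed the same class pattern in mouse. Its immune-like level was 2547, 1028 and 57.5 CPM, and Leydig-like cells came next at 2.35, 11.1 and 0 CPM. Immune-like cells held 98.2%, 53.97% and 34.7% of its counts. It was at 0 in stromal-like and endothelial-like cells of all 3 libraries.

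The 3 C1q chains were abundant in mouse immune-like cells. C1qa stood at 6053, 1999.7 and 319 CPM there in replicates 1 to 3. C1qb stood at 3973, 2014 and 408 CPM. C1qc stood at 3981, 1705 and 537 CPM. For each chain the 3 libraries kept the same order, replicate 1 highest and replicate 3 lowest, and the immune-like range did not overlap that of any other class. Beyond immune-like cells, C1qa and C1qc were highest in Leydig-like cells, at up to 14.5 and 7.97 CPM in replicate 2. Immune-like cells held 97.8%, 72.1% and 61.1% of C1qa counts and 97.8%, 85.7% and 60.8% of C1qc counts.

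The chains are neighbours on mouse chromosome 4, all on the minus strand: C1qb (136606009 to 136613511), C1qc (136616466 to 136620376) and C1qa (136623223 to 136626161). RefSeq's opossum annotation (assembly mMonDom1.pri) keeps the order C1QB, C1QC and C1QA between EPHB2 and EPHA8. In the opossum bulk tables, C1QC (chromosome 4, 355262077 to 355269543) and C1QA (355278125 to 355282276) also lie side by side on the minus strand. Their mouse promoters are printed because the chains were together in immune-like cells but apart in spermatids, as described further on. Each line is the 250 bases before the annotated start (GENCODE vM39, GRCm39), 5′ to 3′ on the gene's strand, with capitals at GAGGAA, the core bound by ETS-family factors such as PU.1, or at its complement TTCCTC.
C1qa promoter, chr4:136626162-136626411: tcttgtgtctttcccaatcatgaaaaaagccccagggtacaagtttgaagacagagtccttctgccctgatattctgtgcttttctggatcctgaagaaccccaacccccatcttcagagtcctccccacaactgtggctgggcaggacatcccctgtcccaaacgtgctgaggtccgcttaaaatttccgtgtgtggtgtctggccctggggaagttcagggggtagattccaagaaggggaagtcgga
C1qb promoter, chr4:136613512-136613761: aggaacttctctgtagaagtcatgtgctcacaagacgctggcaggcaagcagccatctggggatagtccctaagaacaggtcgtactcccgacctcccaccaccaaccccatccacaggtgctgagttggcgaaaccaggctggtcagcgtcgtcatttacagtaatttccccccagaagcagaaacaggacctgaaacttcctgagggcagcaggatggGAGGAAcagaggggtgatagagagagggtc
C1qc promoter, chr4:136620377-136620626: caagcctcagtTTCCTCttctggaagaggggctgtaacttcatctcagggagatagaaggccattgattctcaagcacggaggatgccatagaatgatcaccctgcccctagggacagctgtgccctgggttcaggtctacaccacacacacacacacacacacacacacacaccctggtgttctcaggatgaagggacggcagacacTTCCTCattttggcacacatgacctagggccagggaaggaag
Searched on both strands, GAGGAA occurred 0 times before C1qa, 1 time before C1qb (30 to 25 bases before the start) and at 2 places before C1qc (239 to 234 and 42 to 37 bases before the start, both on the opposite strand). The motif occurs in 4990 of 21770 promoter windows of protein-coding genes of this length, or 22.9%. Such a match describes letters and not a bound site.

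Of the 3 chains, C1qb was also present at a higher level in 1 class of mouse germ cells. In elongating spermatids it stood at 36.4, 29.3 and 26.03 CPM, against 3.18, 3.41 and 2.83 CPM in round spermatids and 0.540, 1.57 and 0.280 CPM in spermatocytes. C1qa reached at most 0.0740 CPM and C1qc at most 0.171 CPM in elongating spermatids. The 3 classes did not overlap for C1qb, and elongating spermatids, being many, held 37.0%, 57.3% and 78.7% of all its counts, whereas immune-like cells held 53.2%, 16.6% and 5.52%.

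Counted by cells, C1qb had an estimated count of at least 0.5 in 304 of 1184 elongating spermatids of replicate 1 (25.7%, 95% exact binomial interval 23.2% to 28.3%, counting error only). The share was 208 of 1232 in replicate 2 (16.9%, 14.8% to 19.1%). It was 243 of 2074 in replicate 3 (11.7%, 10.4% to 13.2%). In spermatocytes, a class of greater depth in replicates 1 and 2, the shares were 0.919%, 1.87% and 0.0972%. Median depth was 8218, 5698 and 3753 counts per elongating spermatid and 9585, 8212 and 2479 per spermatocyte. C1qa passed the same count in 0 cells of each library, and C1qc in 0, 1 and 1. All 4 elongating-spermatid clusters carried C1qb, at 14.97 to 43.3 CPM over the pooled libraries. The unnamed gene Gm69251 overlaps both C1qb and C1qc on the other strand. Without a stated strand setting, their reads cannot be told apart.

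**Figure D2:**
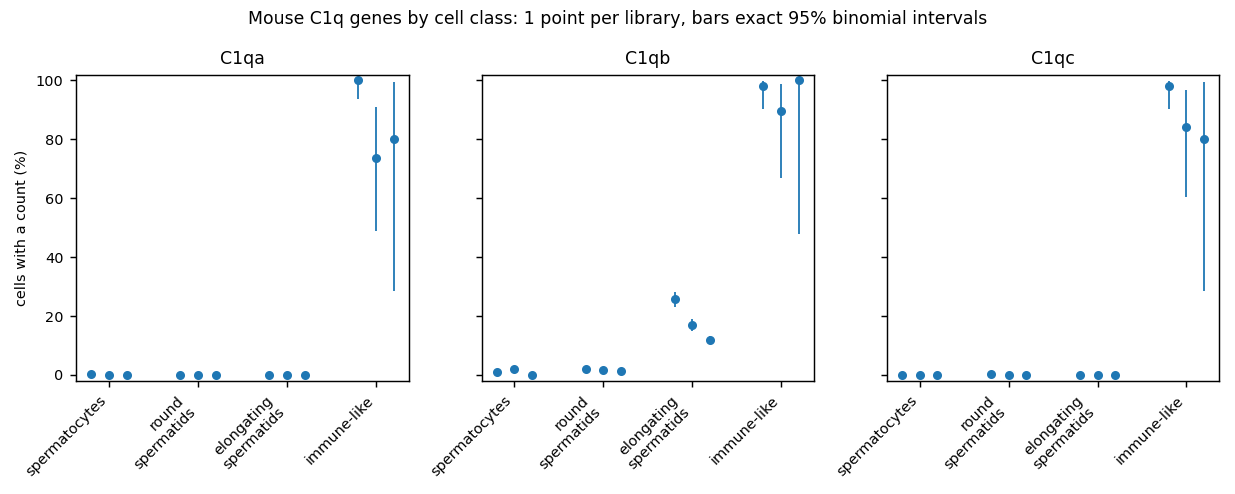
Percentage of mouse cells of each class with an estimated count of at least 0.5 of C1qa, C1qb or C1qc, per library, with 95% exact binomial intervals. In elongating spermatids C1qb reaches 11.7% to 25.7% of cells while C1qa stays at 0.

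In opossum, C1QC had 2325, 1935 and 2067 CPM in immune-like cells of replicates 1 to 3, and C1QA 131, 77.7 and 51.4 CPM. Neither exceeded 6.601 CPM in any other class, and elongating spermatids were at or below 0.238 CPM for both. Immune-like cells held 99.1% to 99.8% of C1QC counts and 98.1% to 99.4% of C1QA counts. The ratio of C1QA to C1QC was 0.0248 to 0.0565 over the 3 opossum libraries, against 0.594 to 1.52 in mouse immune-like cells. In bulk opossum testis, where TPM corrects for transcript length, the same ratio was 0.289 to 1.42 over 20 libraries (median 0.627). The single-cell kit reads 3′ ends and bulk reads cover whole transcripts, and the cause of the gap was not tested.

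C3 was highest per class sum in stromal-like cells in mouse, and in stromal-like and immune-like cells in opossum. Mouse C3 (chr17:57510964-57535155, minus strand) stood at 18.9, 10.7 and 12.1 CPM in stromal-like cells and 6.83, 6.35 and 4.75 CPM in Leydig-like cells, ranges that did not overlap. It was at 0 in mouse immune-like, endothelial-like and Sertoli-like cells of every library. Of the mouse C3 counts, 30.3 to 39.4 in each library, stromal-like cells held 26.2%, 10.2% and 12.5%, spermatocytes 17.8%, 39.1% and 40.4%, and elongating spermatids 26.7%, 10.8% and 28.1%. Opossum C3 stood at 43.7, 78.3 and 46.5 CPM in stromal-like cells and at 71.9, 77.6 and 73.1 CPM in immune-like cells. Those 2 opossum ranges overlapped. Stromal-like cells held 56.4%, 55.5% and 53.2% of opossum C3 counts, and immune-like cells 38.9%, 36.5% and 31.7%. Against the floor of 3 counts over all mouse libraries, opossum immune-like cells had at least 5.19-fold more C3 (at least 3.35-fold against the floor of the mouse library with at least 20 cells). These bounds hold counting error only. They leave out the spread between libraries and any species difference in annotation or mapping. An estimated count of 0 need not mean that no molecule was read.

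Cd74 (chr18:60936899-60945731, plus strand), the chaperone of class II molecules, stood at 7034, 3449 and 166 CPM in mouse immune-like cells. The only other class above 5 CPM in any mouse library was endothelial-like cells, at 21.3, 23.6 and 0 CPM. Opossum CD74 stood at 2365, 827 and 1191 CPM in immune-like cells and at most 7.62 CPM elsewhere. Immune-like cells held 98.9% to 99.9% of opossum CD74 counts, and 98.6%, 52.97% and 18.1% of those in mouse replicates 1 to 3.

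B2m (chr2:121977957-121983594, plus strand), the light chain of class I molecules, was the one gene with counts in every somatic class of both species in every library. In mouse it stood at 3189, 1347 and 44.9 CPM in immune-like cells, 1374, 1438 and 232 CPM in endothelial-like cells and 1160.3, 1424 and 379 CPM in Leydig-like cells. Stromal-like cells had 583, 810.4 and 211 CPM, and these 4 classes overlapped one another. Leydig-like cells held 40.4%, 66.1% and 35.4% of mouse B2m counts and immune-like cells 17.9%, 1.92% and 0.465%. Sertoli-like cells, at 24.7, 23.9 and 16.0 CPM, lay below all of them and overlapped spermatogonia, at 17.3, 21.6 and 5.65 CPM. Elongating spermatids were lowest, at 0.278, 1.97 and 0.0291 CPM.

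The opossum order differed in its middle. B2M stood at 2642, 1747 and 3105 CPM in immune-like cells, 2129, 1819 and 1977 CPM in endothelial-like cells and 1802, 1936 and 1519 CPM in stromal-like cells. Leydig-like cells had 360.0, 343 and 372 CPM, clear of both the classes above and the Sertoli-like cells at 243, 293 and 290.3 CPM. Stromal-like cells held 43.7%, 38.5% and 44.1% of B2M counts and immune-like cells 26.8%, 23.03% and 34.2%. Germ-cell classes were between 0 and 67.0 CPM.

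Species differences were tested with edgeR's quasi-likelihood test on class sums over at least 20 cells. Calls needed an adjusted p under 0.05 (Benjamini-Hochberg, over all genes tested) and an absolute log2 difference of at least 1. A gene-specific difference in annotation or mapping between the genomes cannot be told apart from expression. Genes were paired by symbol, and 6 of the 10 could be tested.

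In immune-like cells, C1QA and CSF1R passed, which is 2 of the 5 genes with counts in both species, against 16.5% of the 6542 genes tested. The all-gene share, unlike that of the 5, keeps genes that entered through 1 species alone. Only mouse replicate 1 had 20 such cells, so that 1 mouse library faced 3 opossum libraries and was assumed to vary like them. By shared barcodes it also stood apart from the opossum libraries. That grouping and species cannot be told apart here. Of the level pairs given above, C1QA was lower in opossum by a log2 difference of -6.22 (SE 0.54, edgeR adjusted p = 0.018) and CSF1R by -2.25 (SE 0.28, adjusted p = 0.0181). Within opossum, the C1QA to C1QC ratio was 0.0248 to 0.0565 in single immune-like cells but 0.289 to 1.42 in bulk testis. The part of that gap in the C1QA difference was not tested. C3, at 0 in mouse, entered through the opossum libraries alone, so no call is counted for it and its fold is the bound given above. CD74 (log2 difference -2.37, edgeR adjusted p = 0.0546), C1QC (-1.01, adjusted p = 0.0888) and B2M (-0.45, adjusted p = 0.492) did not pass. The opossum class joins 2 clusters, described below, whose ranges of CSF1R, CD74, C3 and B2M did not overlap. The part of that mixture in these differences was not tested. The median over all tested genes was 0.47, and 0.31 when the scaling factors were those of DESeq2. The CSF1R call did not hold once mouse replicates 2 and 3 entered with fewer cells (log2 difference -1.48, edgeR adjusted p = 0.223), but it did with replicate 2 alone added, a choice made after seeing the data (-1.76, adjusted p = 0.0417). It also held with cells of at least 500 counts, where the 3 mouse libraries had 79, 70 and 53 immune-like cells (-1.48, edgeR adjusted p = 0.0094). Leaving out opossum replicate 2 or 3 left 0 genes called in all, with C1QA still at -6.24 and -6.05 (edgeR adjusted p = 0.0673 and 0.0707). DESeq2 in place of edgeR called C1QC (-1.17, adjusted p = 0.00174) and CD74 (-2.52, adjusted p = 0.000627). CD74 also passed edgeR with counts rounded up (-2.57) and without opossum replicate 1 (-2.99). Other refits brought both genes nearer to no difference. Over 15 refits CD74 ranged from -2.99 to -0.148 and C1QC from -1.23 to -0.216.

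B2M moved in opposite directions in different somatic classes. In Sertoli-like cells it was the one member with enough counts and passed, higher in opossum (1 of 1, against 40.6% of all genes tested; log2 difference 3.28, SE 0.58, edgeR adjusted p = 0.00168). In Leydig-like cells it was again the one member tested, and passed as lower in opossum (1 of 1, against 59.5%; -1.42, SE 0.43, edgeR adjusted p = 0.00947). That call was lost without mouse replicate 2 (-1.04, edgeR adjusted p = 0.0734). In stromal-like cells B2M (1.66, SE 0.51, edgeR adjusted p = 0.0203) and C3 (1.92, SE 0.44, adjusted p = 0.00497) both passed as higher in opossum, 2 of 2 against 51.4%. The stromal B2M call was lost without mouse replicate 1 (1.79, edgeR adjusted p = 0.0565), and that of C3 with cells of at least 2000 counts only (1.13, adjusted p = 0.184). In endothelial-like cells, B2M alone was tested and did not pass (0 of 1, against 48.1%; 0.11, SE 0.44, edgeR adjusted p = 0.850).

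The change from each somatic class to immune-like cells was also compared between species, by testing the interaction of class and species while blocking on the library. None of the 6 genes passed in the comparison from Sertoli-like (0.374% of all genes called), Leydig-like (0.315%), stromal-like (0.521%) or endothelial-like cells (2.35%). With edgeR these comparisons called 30, 25, 43 and 152 genes in all, and 1340, 1311, 1187 and 1017 genes had an unadjusted p under 0.05. With other settings, B2M, C3 or CSF1R passed in 12 of 60 refits. C3 was at 0 in mouse immune-like cells, so its passes rest on the other sums and only describe. The number of mouse libraries with 20 immune-like cells, 1, limits these tests.

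Opossum immune-like cells fell into 2 clusters, in which the 6 genes stood at different levels or overlapped as follows. The clusters are described with no test, since the same cells were clustered, though without the 10 genes. The larger, of 838 cells, was led among named genes by SPP1, CDH20 and the macrophage mannose receptor MRC1. The smaller, of 249 cells, was led by the class II gene HLA-DRA and the mast-cell protease CPA3. The macrophage list summed to 5469, 5178 and 4125 CPM in the larger and 2193, 1558 and 1570 CPM in the smaller. The smaller cluster had a mast-cell list of 297, 301 and 969 CPM and a T-cell list of 395, 153 and 22.3 CPM, against at most 1.18 and 3.54 CPM in the larger. Levels of the B-cell, natural killer and dendritic lists are not reported here, so these lists do not give its whole content.

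CSF1R stood at 229.9, 202 and 181 CPM in the larger cluster and 147, 37.1 and 73.7 CPM in the smaller, with no overlap. CD74 had the opposite order, at 1253, 453 and 469 CPM in the larger and 5415, 3673 and 4457 CPM in the smaller, again with no overlap. C3 was likewise lower in the larger cluster, at 54.8, 72.2 and 68.6 CPM against 119, 119 and 93.6 CPM. B2M was at 1970.4, 1537 and 3015 CPM in the larger and 4485, 3351 and 3514 CPM in the smaller, and C3 and B2M did not overlap between the clusters either. Ranges without overlap were found for 4 of the 6 genes, against 20.5% of the 8639 opossum features with a mean of at least 10 CPM, a share counted after seeing the data. C1QC overlapped between them, at 2297, 2014 and 2107 CPM and 2401, 1333 and 1887 CPM. C1QA overlapped too, at 137, 75.2 and 37.4 CPM and 115, 96.7 and 114 CPM.

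**Figure D3:**
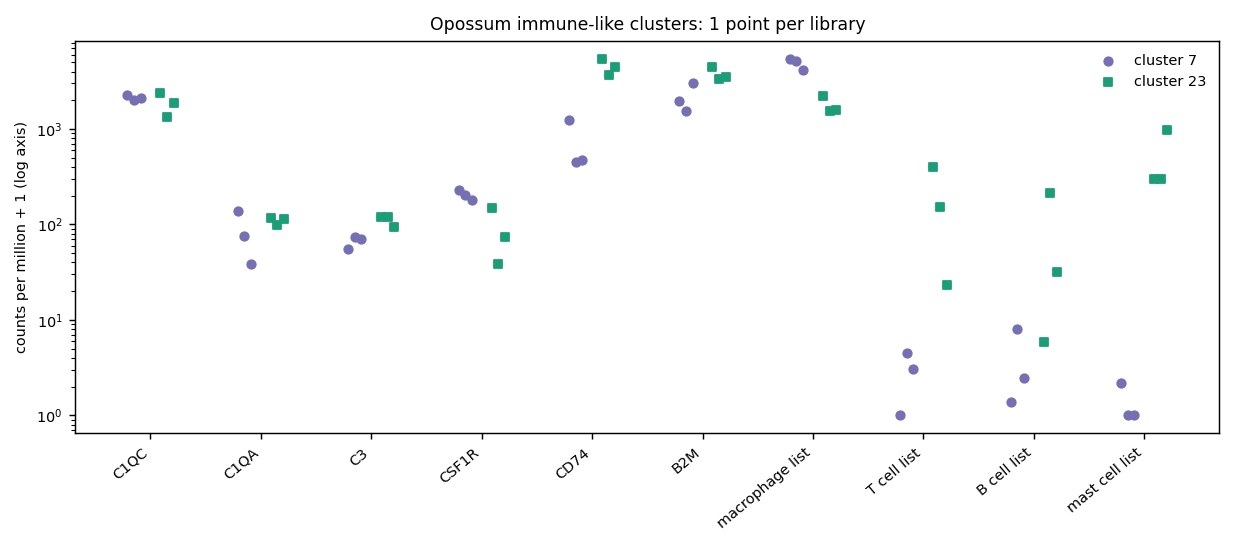
Level of the 6 named genes and of the macrophage, T-cell, B-cell and mast-cell lists in the 2 opossum immune-like clusters, in CPM on a logarithmic axis. Points are the 3 libraries. CSF1R is higher in the cluster of 838 cells, CD74, C3 and B2M are higher in the cluster of 249 cells, and C1QA and C1QC overlap.

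The genes most like a member over library and class sums were ranked by Pearson's r of log2(CPM + 1). Sums of 1 library share its depth, so these values only describe. Sums needed at least 20 cells, so only 1 mouse immune-like sum, that of replicate 1, and 2 endothelial-like sums entered, and likeness to Csf1r and Il34 rests on those. Over 24 mouse sums and 17511 genes, Csf1 was closest to Maob (r = 0.992), Akr1c14 (0.988) and G0s2 (0.981). Csf1r was closest to C1qc (0.976), Cd300c2 (0.965) and Cd209f (0.962). Il34 was closest to the endothelial gene Emcn (0.909), and to Zfp366 (0.907) and Gbp9 (0.903). C3 was closest to Abca8b (0.953), the mesenchymal receptor gene Pdgfra (0.942) and C1ra (0.941). Over 27 opossum sums and 9256 genes, CSF1R was closest to PTGER4 (0.946), GPSM3 (0.931) and BST1 (0.930), and C3 to SLC22A15 (0.898), HACD4 (0.886) and SLC22A16 (0.882).

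The age course was measured in bulk opossum testis, in TPM, a length-corrected transcript level scaled to the same total in every library, where fewer cells of a type and less RNA per cell cannot be told apart. Libraries were made by polyA selection except 2-month replicates 2 to 4 and adult replicate 2, which were rRNA depleted. B2M fell steeply. Its TPM was 7774 and 8009 at 1 month, 1366, 168, 220.4 and 144 at 2 months, 115, 145, 116 and 142 at 3 months and 252, 76.5 and 779 at 4 months. The 7 adult libraries ranged from 130.5 to 640.2 TPM with a median of 214. The 1-month libraries lay above all others. At 2 months the polyA library stood far above the 3 depleted ones, so preparation moves with that difference. At 1 month B2M alone made up 0.777% and 0.801% of all TPM.

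CSF1R showed the opposite course between the ends. It was at 1.94 and 1.64 TPM at 1 month, 6.21, 26.5, 37.4 and 9.47 at 2 months, 38.2, 45.6, 60.8 and 23.6 at 3 months, and 63.1, 5.60 and 7.01 at 4 months. Adults ranged from 2.77 to 110.1 TPM with a median of 42.7. The 1-month pair was below all other libraries, and the 4-month and adult groups were widely spread. The TPM ratio of CSF1R to C1QC, a comparison within each library, was 0.0553 and 0.0448 at 1 month and 0.124 or more in every other library.

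C1QC stood at 34.98 and 36.6 TPM at 1 month, 31.5, 46.9, 36.6 and 11.8 at 2 months, 74.6, 90.5, 73.4 and 70.5 at 3 months, and 110.0, 21.8 and 56.6 at 4 months, and adults ranged from 15.9 to 170 with a median of 68.0. C1QA stood at 13.3 and 13.3 TPM, then 14.5, 36.0, 30.3 and 16.8, then 63.7, 65.0, 45.2 and 58.0, then 75.5, 12.1 and 29.6 at the same ages, and adults ranged from 6.12 to 91.6 with a median of 44.0. Both were higher in every 3-month library than in any 1-month or 2-month library, and the 4-month and adult libraries lay on both sides of the 3-month range. CD74 stood at 3.44 and 4.08 TPM, then 3.55, 12.1, 14.1 and 2.45, then 11.8, 26.8, 22.1 and 17.9, then 17.5, 5.05 and 34.9, and adults ranged from 2.49 to 36.1 with a median of 18.7. Its 2-month and 3-month ranges overlapped. C3 stood at 5.85 and 8.35 TPM, then 5.21, 8.09, 10.3 and 6.35, then 3.61, 4.60, 5.40 and 4.16, then 14.3, 3.73 and 7.70, and adults ranged from 0.561 to 20.9 with a median of 8.33. The adult range covered that of every other age.

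The adult libraries differed among themselves in one pattern. Replicates 1 and 3 were the 2 lowest, and replicate 7 the highest, of the 7 adults for CSF1R, C1QA, C1QC, C3 and CD74. The macrophage list moved with it, at 7.97 and 11.1 TPM in replicates 1 and 3, 287 TPM in replicate 7 and 91.1 to 178 TPM in the other 4. So did the stromal and endothelial lists, but not the Leydig list, at 676 and 384 TPM in that pair and 329 to 887 TPM in the other 5. The stromal list was lowest in replicates 3 and 1 (168 and 422 TPM) and highest in replicate 7 (1140.3 TPM), and the endothelial list was lowest in the same pair (5.55 and 13.1 TPM) and at 29.6 TPM or more in the other 5. The spermatogonial list was lowest in that pair too (453 and 439 TPM, against 530.2 TPM or more), with replicate 4 highest (1481 TPM). Replicates 1 and 3 also had the fewest genes at 1 TPM or more, 13166 and 14576, against 15471 or more. The part of these lists and of the number of detected genes in the pattern was not tested. B2M did not follow, with adult replicate 1 the highest of the 7.

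**Figure D4:**
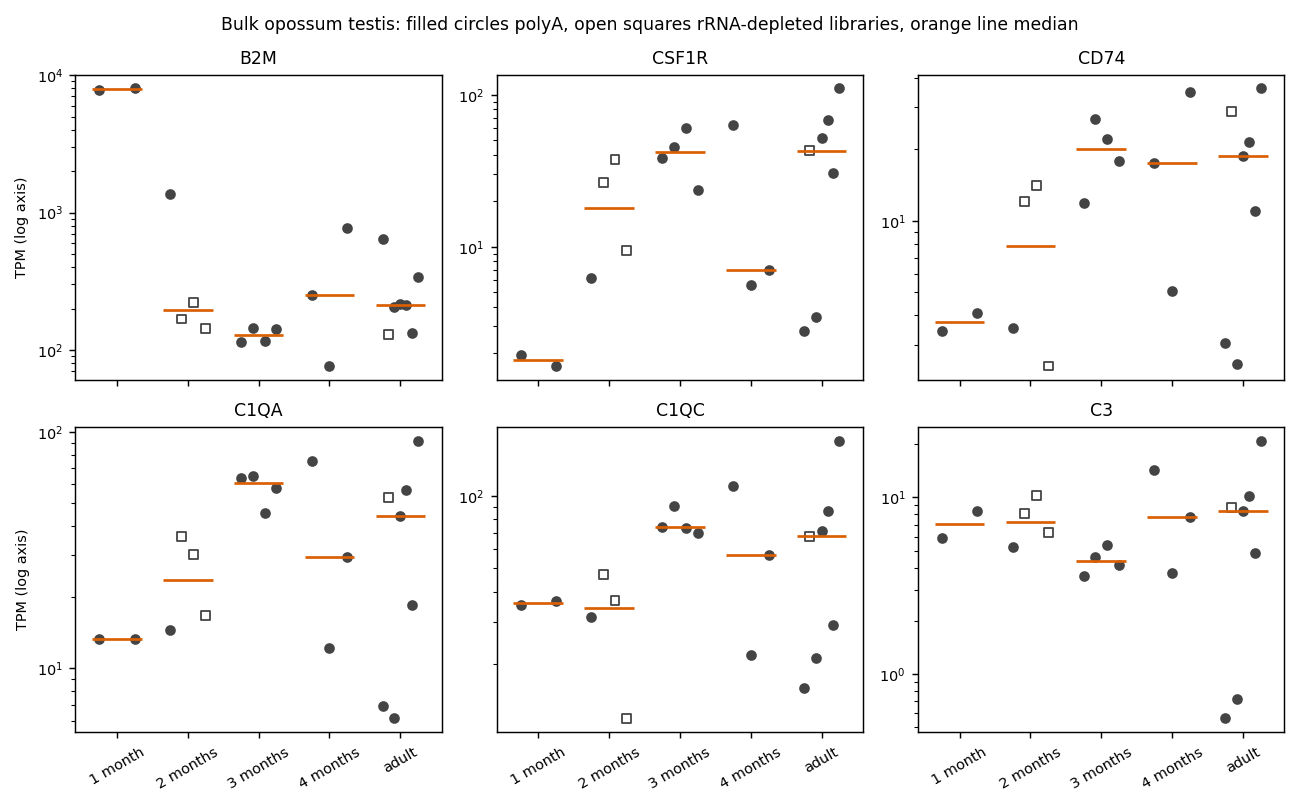
TPM of the 6 named genes in 20 bulk opossum testis libraries by age, on a logarithmic axis, with polyA-selected and rRNA-depleted libraries marked apart. B2M is highest at 1 month, CSF1R is lowest at 1 month, and adult libraries spread widely for CSF1R, C1QA, C1QC, C3 and CD74.

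Ages were compared with limma on log2(TPM + 1) over 19300 genes with the preparation as a term, and all 6 genes passed the filter on low values. Fold changes are on that scale, which understates changes of low genes, and the contrasts share libraries. Over the 5 ages, 1 of 6 genes differed, B2M (F = 20.3, limma adjusted p = 3.83e-05), against 53.5% of all genes. CSF1R came next (limma adjusted p = 0.0704). It passed when 4-month replicate 1 (adjusted p = 0.0308), adult replicate 1 (0.0241) or adult replicate 3 (0.0316) was left out, all limma values. CD74, C1QA, C1QC and C3 had limma adjusted p of 0.113, 0.184, 0.470 and 0.864.

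From 1 to 2 months B2M fell by 3.33 (SE 0.85, limma adjusted p = 0.016), the 1 gene of 6 called, against 11.5% of all genes. Within polyA libraries the change was -2.53 and did not pass (limma adjusted p = 0.184). It was also lost without 1-month replicate 1 or 2 (adjusted p = 0.0849 and 0.0949) or adult replicate 2 (0.138), again with limma. From 2 to 3 months B2M fell by 2.60 (SE 0.75, limma adjusted p = 0.0186), 1 of 6 against 23.2%. This rested on 2-month replicate 1, without which the change was -1.41 (limma adjusted p = 0.623), and on the preparation term, without which it was -1.18 (adjusted p = 0.215). CD74 (2.28, limma adjusted p = 0.0803) and C1QA (2.02, adjusted p = 0.113) did not pass.

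From 3 months to adulthood 0 of 6 genes passed, against 3.4% of all genes (656 genes by limma, and 4445 at an unadjusted p under 0.05), with B2M at 1.1 (adjusted p = 0.201). Between 1 month and adulthood 2 of 6 passed, against 44.7%. B2M was lower in adults by a log2 change of -4.81 (SE 0.65, limma adjusted p = 1.71e-05) and CSF1R was higher by 3.08 (SE 1.11, adjusted p = 0.0295). The CSF1R call was lost without 1-month replicate 1 or 2 (limma adjusted p = 0.128 and 0.147), without adult replicate 5 (2.80, adjusted p = 0.0509), with a pseudocount of 5 (2.2, adjusted p = 0.062), without the filter on low values (3.08, adjusted p = 0.0583) and after quantile normalization (2.01, adjusted p = 0.0683). With quantile normalization C3 also passed, as lower in adults (-1.56, limma adjusted p = 0.0305).

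All-gene medians were 0.39, 0.24, -0.20 and 0.59 in the 4 contrasts in the order given, and -0.01, -0.23, 0.03 and -0.12 after quantile normalization. The numbers of genes higher and lower were 1465 and 760, 2873 and 1610, 305 and 351, and 5653 and 2972, and became 908 and 1246, 2545 and 3759, 666 and 423, and 3489 and 5135 with quantile normalization. With that scaling B2M was lower and called in the same 3 contrasts (-3.76, -2.87 and -5.29). Cell makeup moved along with age: the elongating-spermatid list summed to 31.7 to 32.5 TPM at 1 month and 9156 to 27000.3 TPM in adults. The stromal list summed to 3550.1 to 4643 TPM at 1 month and 168 to 1140.3 TPM in adults. The immune list stood at 912 to 1032 TPM at 1 month, 146 to 346 TPM at 2 months, 622 to 663 TPM at 3 months and 235 to 1036.5 TPM in adults. At the same ages the macrophage list stood at 43.5 to 50.4, 19.6 to 77.8, 57.6 to 108 and 7.97 to 287 TPM. The part of these shifts in the results was not tested.

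Among regulators of CSF1R signalling and of macrophages (22 of 26 tested in bulk), 7 were higher and 2 lower in adults than at 1 month, with a median of 1.23 against 0.59 for all genes. That is 9 of 22 called, against 44.7% of all genes. In these lists, a gene with a mean under 1 TPM at one of the ages compared passed the filter through other libraries, so its levels are given without a p, and counts that hold such genes only describe. INPP5D, a lipid phosphatase that restrains receptor signalling, stood at 0.0976 ± 0.0732 TPM (SD, n = 2) at 1 month and 129 ± 82.6 TPM (SD, n = 7) in adults. FES, a tyrosine kinase, rose from 5.74 ± 0.227 to 55.3 ± 26.1 TPM. The adaptor GRB2 fell from 237 ± 7.16 to 62.4 ± 23.1 TPM. FES and GRB2 had limma adjusted p of 0.00107 and 6.29e-05. These are levels of whole testis, and which cell classes carried the changes was not tested. From 1 to 2 months 0 of 22 were called higher and 1 lower, against 11.5% of all genes. From 2 to 3 months FES and INPP5D rose by 3.25 and 5.23 and GRB2 fell by 1.14, the 3 of 22 called, against 23.2% of all genes (limma adjusted p = 0.00415, 0.0141 and 0.0165). All 3 calls were lost without 2-month replicate 1 (limma adjusted p = 0.261, 0.277 and 0.538). FES stood at 119 ± 23.4 TPM (SD, n = 4) at 3 months. Between these ages the elongating-spermatid list went from 36.0 to 314 TPM to 3455 to 7075 TPM, and its part was not tested. The GRB2 change also rested on the preparation term, without which it was -0.059 (limma adjusted p = 0.936), with means of 75.2 ± 58.4 TPM (SD, n = 4) at 2 months and 60.5 ± 2.75 TPM (SD, n = 4) at 3 months. None of 22 passed between 3 months and adulthood, against 3.4%.

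Of the other complement genes 13 of 36 were tested in bulk, and 5 were higher and 4 lower in adults than at 1 month (median 0.08 against 0.59 for all genes). That is 9 of 13 called, against 44.7% of all genes. At 1 month and in adults, C9, the pore-forming terminal component, stood at 0.533 ± 0.0212 and 6.45 ± 3.88 TPM, the stabilizing factor CFP at 0.484 ± 0.00995 and 13.04 ± 9.52 TPM, and C7, another terminal component, at 21.8 ± 8.05 and 0.940 ± 0.534 TPM. The protease C1S fell from 307 ± 4.49 to 78.2 ± 59.8 TPM (limma adjusted p = 0.0131). C7 was the 1 of 13 called from 1 to 2 months, against 11.5% of all genes (-2.76, limma adjusted p = 0.00599). From 2 to 3 months 2 of 13 were called, against 23.2%, C9 (0.840 ± 0.545 TPM, then 5.35 ± 1.91 TPM) and C1QBP (-1.45, limma adjusted p = 0.0185), and none of 13 passed after 3 months, against 3.4%. The call of C1S was lost without 1-month replicate 1 or 2 (limma adjusted p = 0.0833 and 0.0884), that of C7 from 1 to 2 months without 1-month replicate 2 (0.0773) or 2-month replicate 1 (0.0519), and that of C1QBP without 2-month replicate 1 (0.69).

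Of the antigen-presentation genes 16 of 27 were tested, and 2 were higher and 8 lower in adults than at 1 month, with a median of -1.12 against 0.59 for all genes. That is 10 of 16 called, against 44.7% of all genes. The immunoproteasome subunit PSMB10 fell from 69.7 ± 9.21 to 6.64 ± 2.49 TPM (limma adjusted p = 3.74e-06) and the proteasome activator PSME2 from 523 ± 23.2 to 92.9 ± 37.6 TPM (2.59e-05). The class II regulator RFX5 rose from 7.90 ± 2.30 to 71.1 ± 38.6 TPM (limma adjusted p = 0.00572). CIITA, another class II regulator, was listed at 0 in both 1-month libraries and stood at 3.53 ± 1.91 TPM in adults. From 1 to 2 months PSMB10 (-3.01) and PSMB9 (-2.61) were the 2 of 16 called, both lower, against 11.5% of all genes (limma adjusted p = 0.000673 and 0.039). From 2 to 3 months RFX5 rose by 2.47 and PSME2 fell by 1.11, the 2 of 16 called, against 23.2% (limma adjusted p = 0.0409 and 0.0463). CIITA was the 1 of 16 called after 3 months, against 3.4%, with 0.777 ± 0.415 TPM at 3 months. CIITA was not called in either contrast with a pseudocount of 5. Its call after 3 months was also lost in 10 or more other refits. Among them were a pseudocount of 0.1, no filter on low values, polyA libraries only and each 3-month replicate left out. The calls of PSMB9, RFX5 and PSME2 between neighbouring ages were lost in 10 or more refits each, with limma adjusted p of 0.0521, 0.556 and 0.713 without 2-month replicate 1. PSME2 was -0.27 without the preparation term (limma adjusted p = 0.653). The adult call of RFX5 was lost without 1-month replicate 2 (0.0758).

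In the single-cell species tests, 2 of 19 tested CSF1R-signalling genes were higher and 2 lower in opossum immune-like cells, with a median of 0.27 against 0.47 for all genes. That is 4 of 19 called, against 16.5% of all genes. In these lists, a gene with a mean under 2 CPM in one species entered through the other, so its levels are given without a p, and counts that hold such genes only describe. The adaptor GRB2 stood at 534 ± 59.4 CPM (SD, n = 3) in opossum and 79.9 CPM in the 1 mouse library. FCER1G, a signalling chain like TYROBP, stood at 276 ± 64.6 and 2260.4 CPM, and the kinase subunit PIK3CD at 4.08 ± 0.278 and 57.9 CPM. Their edgeR adjusted p were 0.0226, 0.0181 and 0.035. Of 6 complement genes tested there, against the same 16.5%, only C3AR1, the receptor of a C3 fragment, was called (1.89 ± 1.66 against 168 CPM), and of 16 antigen-presentation genes only the protease CTSS (352 ± 106 against 1229 CPM, edgeR adjusted p = 0.0356), both lower in opossum. Without opossum replicate 2 or 3 none of these 5 genes was called, as no gene was in all. C3AR1, which entered through the mouse library, is left out of the values that follow. The log2 differences of the others kept direction without replicate 2 and without replicate 3, in that order. They were 2.57 and 2.43 for GRB2, -3.42 and -3.19 for FCER1G, -3.93 and -3.93 for PIK3CD, and -1.89 and -2.27 for CTSS. With all 3 mouse libraries entered, by a minimum of 1 cell, FCER1G (-2.26, edgeR adjusted p = 0.0936) and CTSS (-1.42, adjusted p = 0.228) were not called either. CTSS was also lost with the 10 genes in the clustering (adjusted p = 0.0512).

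In Leydig-like cells 1 complement gene of 5 was higher in opossum and 3 lower, where 59.5% of all genes were called. C9 stood at 28.3 ± 10.0 against 0.263 ± 0.456 CPM, C7 at 2.30 ± 1.00 against 266 ± 59.6 CPM and C8G, a further terminal component, at 1.30 ± 0.517 against 24.3 ± 18.2 CPM (SD, n = 3). C7 had an edgeR adjusted p of 6.39e-08. In stromal-like cells, with 51.4% of all genes called, 1 of 4 was higher, the lectin-pathway protease MASP1 (23.8 ± 10.7 against 5.23 ± 4.90 CPM, edgeR adjusted p = 0.027), and 2 were lower, among them C7 (13.2 ± 3.796 against 80.8 ± 65.2 CPM, adjusted p = 0.0097). In the same class 1 antigen-presentation gene of 14 was higher, the immunoproteasome subunit PSMB9 (148 ± 15.8 against 9.95 ± 4.71 CPM, edgeR adjusted p = 0.000118), and 2 were lower. In endothelial-like cells, with 48.1% of all genes called, 2 of 3 complement genes were higher, CD93 (803 ± 226 against 248 ± 77.7 CPM, edgeR adjusted p = 0.0229) and CFP (92.6 ± 72.0 against 1.92 ± 2.71 CPM). The CD93 call was lost without mouse replicate 1 or 2 (edgeR adjusted p = 0.0718 and 0.165). In stromal-like cells MASP1 was lost without mouse replicate 1 or 3 (0.0998 and 0.0618) and C7 without mouse replicate 2 (0.0515).

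The CSF1R-signalling list was also counted in the other somatic classes, where 40.6% (Sertoli-like), 59.5% (Leydig-like), 51.4% (stromal-like) and 48.1% (endothelial-like) of all genes were called. In Sertoli-like cells 4 of 7 tested genes were higher in opossum and 1 lower, 5 called against 40.6% (median 1.72 against 0.16 for all genes), with INPP5D at 32.7 ± 7.62 against 0.870 ± 1.13 CPM and FCER1G at 0.441 ± 0.606 against 33.1 ± 12.5 CPM (SD, n = 3). In Leydig-like cells 1 of 9 was higher and 4 were lower (median 0.18 against 0.18), among them the transcription factor CEBPA (0.221 ± 0.213 against 22.4 ± 8.74 CPM). In stromal-like cells 7 of 13 were higher and 4 lower, 11 called against 51.4%, among them the kinase SYK (5.58 ± 4.52 against 40.6 ± 12.3 CPM, edgeR adjusted p = 0.00624). The median there was 1.28 against 0.06. In endothelial-like cells 1 of 10 was higher, STAT3 (424 ± 70.04 CPM, n = 3, against 93.3 ± 8.60 CPM, n = 2, edgeR adjusted p = 0.00305), and 1 lower, FES (adjusted p = 0.0116), with a median of 0.19 against 0.11.

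Of the antigen-presentation genes, 0 were higher and 3 lower of 7 tested in opossum Sertoli-like cells, where 40.6% of all genes were called. The counts were 1 higher and 5 lower of 12 in Leydig-like cells (59.5% of all genes called) and 1 higher and 6 lower of 12 in endothelial-like cells (48.1%). LGMN, a lysosomal protease of antigen processing, was among the lower ones in each of these classes. It stood at 7.43 ± 1.79 against 191 ± 135 CPM in Sertoli-like cells, 7.12 ± 1.67 against 59.1 ± 20.2 CPM in Leydig-like cells and 17.8 ± 8.27 against 100.0 ± 17.8 CPM in endothelial-like cells, with edgeR adjusted p of 0.000534, 2.42e-05 and 0.00158. Its direction was opposite to that of B2M in Sertoli-like cells. The 1 complement gene tested in Sertoli-like cells did not pass. In the changes to immune-like cells, 1 gene of the 3 lists passed from Sertoli-like cells, and none passed from Leydig-like, stromal-like or endothelial-like cells.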

How the data were processed

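The labels give mouse and opossum testis samples as 10x Genomics single-cell or bulk RNA sequencing. The deposited single-cell matrices hold expected counts, mostly fractional, for each feature of each barcode; Cell Ranger 6.0.1 is named in the submitters' processing notes, and the step that made them fractional is not given in the sources used here. Per the file headers, the bulk tables give each gene's coverage (a signal), FPKM and TPM, and the submitters' processing notes name HISAT2 2.2.1, SAMtools 1.12 and StringTie 2.1.4. The genome build of the opossum bulk tables is not given in the sources used here, and opossum coordinates are those of the tables. FPKM was used as an alternative to the authors' TPM; coverage served to derive aligned bases (2.90 to 7.12 gigabases per library).

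Barcodes with at least 1000 counts and 500 genes were kept and the 8% with the highest Scrublet scores removed (scanpy 1.11.5). Each species was clustered alone, without the 10 genes (2000 variable genes, 30 components, leidenalg 0.10.2, resolution 1), giving 28 mouse and 30 opossum clusters, of which 1 opossum cluster of 725 cells stayed unnamed. Class names came from marker lists of 9 classes; a cluster needed at least 3 markers at 1.5-fold or more. Opossum names rest on fewer markers, since fewer carry a symbol.

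Counts were summed per library and class and rounded. Sums over at least 20 cells entered edgeR 4.0.16 (TMM, filterByExpr), with 10750 genes paired by symbol; DESeq2 1.42.0 was an alternative. The SE of an edgeR difference is its size divided by the square root of F. Bulk genes reaching a TPM of 1 in 2 libraries or more were fitted as log2(TPM + 1) with limma 3.58.1, with age and preparation as terms. CPM scales a class sum to 1000000 estimated counts. The scripts were tested on simulated data.

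The 10 genes, the marker lists and the 3 pathway lists (CSF1R signalling, complement, antigen presentation) were chosen with earlier results of these data known. All 10 genes were to be named in every comparison, with at most 2 genes per list and direction by adjusted p and the 3 genes most like CSF1, CSF1R, IL34 and C3; some list genes that this rule names are not reported here. Alternatives covered scaling, tool, filters, depth per cell, clustering, pseudocount, preparation, the replicate number as a block and each library left out.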

Additional observations from a re-analysis of the deposited data

Results flagged for a closer look

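B2M stood apart in 2 bulk groups of the 18 groups examined for a sample far from the others, a check that chance alone meets in about 1 group of 20. At 2 months replicate 1, the only polyA library of that age, had 1366 TPM, and the nearest of the 3 depleted libraries had 220.4 TPM. Among adults replicate 1 had 640.2 TPM, and the nearest of the others 342 TPM. Preparation moves with the first difference; its part was not tested beyond the refits without that library and within polyA libraries.

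The species difference of B2M took opposite directions in 3 somatic classes, with the library ranges of the species apart, though narrowly in Leydig-like cells. There the lowest mouse library stood at 379 CPM and the highest opossum library at 372 CPM. The Leydig and stromal calls were each lost on leaving out a mouse library, as given above. Opossum minus mouse, the log2 difference was 3.28 in Sertoli-like, -1.42 in Leydig-like and 1.66 in peritubular or stromal-like cells, by edgeR. The difference between these classes was not tested.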

How the results depend on the processing

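In the tests within cell classes and between ages, 955 refitted values of the 6 tested genes kept direction and side of the threshold, 26 lost the threshold, 8 gained it and 26 changed sign. These values include 15 refits of C3 in immune-like cells, of which 3 did not keep both. C3 entered that test through opossum alone, so its 15 refits say nothing about stability. The changes to immune-like cells are outside this tally. There at least 1 of the 6 genes gained a call in 12 of 60 refits, where passes of C3 only describe. Of the refitted values of the named list genes, 1141 kept and 130 lost the threshold. Numbers of called genes were less stable; the cause was not tested. The species test called 1080 genes in immune-like cells, 694 with DESeq2, 2545 with at least 500 counts per cell, 624 with at least 2000, and 0 to 1815 with 1 library left out (0 without opossum replicate 2 or 3, 1815 without replicate 1). In Sertoli-like cells 2376 became 3641 without the filter, 1310 with 2000 counts, and 1673 to 4331 with a library left out (4331 without mouse replicate 3, also with a minimum of 1 cell, added after seeing the data). In stromal-like cells 3673 became 2064 with 2000 counts. In endothelial-like cells 2353 became 1255 to 2353 with a library left out (1255 and 1367 without mouse replicates 1 and 2). For the changes from Sertoli-like, Leydig-like, stromal-like and endothelial-like to immune-like cells, the calls were 30, 25, 43 and 152. They became 174, 156, 111 and 296 without the filter, 1043, 1163, 1090 and 532 with 500 counts, 0, 172, 66 and 60 with 2000 counts, 468, 432, 300 and 432 with the 10 genes in the clustering, 220, 728, 522 and 458 with a minimum of 1 cell, and 415, 448, 320 and 414 when mouse replicate 3 was left out as well, a choice made after seeing the data. The first 3 became 258, 284 and 137 with DESeq2 and 536, 391 and 176 with counts rounded up, and the first 2 became 4 and 0 with DESeq2's scaling factors in edgeR. With that scaling the endothelial change was split into 58 higher and 61 lower in place of 90 and 62. With 1 library left out they ranged over 0 to 973, 0 to 438, 0 to 307 and 152 to 326 (973, 438, 307 and 301 without opossum replicate 1, 217, 0, 14 and 326 without replicate 2, and 0 for the first 3 without replicate 3).

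In bulk, 2 months against 1 called 2225 genes, 1118 in polyA libraries only, 5265 without the preparation term and 806 to 3177 with a library left out (902, 806, 1037 and 1226 without 1-month replicates 1 and 2, 2-month replicate 1 and adult replicate 2). Between 2 and 3 months 4483 became 107 to 5256 (107 without 2-month replicate 1), and with FPKM 2558 were higher and 2548 lower (4396 and 686 without the preparation term). Between 3 months and adulthood 656 became 296 with a pseudocount of 0.1, 1089 with quantile normalization, 422 in polyA libraries and 124 to 1037 with a library left out; 3-month replicates 1, 2, 3 and 4 gave 124, 209, 335 and 176, adult replicates 3, 4 and 7 gave 1037, 291 and 370.0, and either 1-month replicate gave 437. The split, 305 higher and 351 lower, became 487 and 199 with FPKM, 202 and 94 with a pseudocount of 0.1, 238 and 418 with one of 5, 192 and 631 with the replicate block and 533 and 304 without adult replicate 1. From 1 to 2 months it was 1825 and 523 with a pseudocount of 0.1. Adults against 1 month called 8625, and 5679 to 9911 with a library left out (5679 without 1-month replicate 2).

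Values of single genes that changed sign were not called. B2M in immune-like cells (-0.45) was 0.50 with 500 counts, 0.17 with the 10 genes in the clustering, 0.44 with a minimum of 1 cell (0.13 with mouse replicate 3 left out as well), and -0.74 to -0.34 with a library left out. B2M in endothelial-like cells (0.11) was -0.19 with 2000 counts. From 1 to 2 months C3 was 0.047 and CD74 0.65 without the preparation term, CD74 -0.44 to 0.048 with a library left out, and C1QA (0.01) was -0.19 with FPKM, -0.64 with quantile normalization and -0.15 to 0.15 with a library left out. From 2 to 3 months C3 was -0.26 to 0.037 with a library left out. From 3 months to adulthood C3 (0.10) was -0.10 with a pseudocount of 0.1 and -0.25 to 0.45 with a library left out.

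Whether replicate numbers pair the samples could not be settled. Deviations of same-numbered bulk libraries had a median correlation of 0.00046 over 13 pairs (-0.26 to 0.67). Other-numbered pairs had a median of 0.0025 over 67 pairs (-0.76 to 0.65). Same-numbered single-cell libraries had -0.08 to 0.17. Deviations from an age mean cancel within the age, which pulls such medians toward 0. With the replicate number as a block, 2 months against 1 called 1034 genes and 3 against 2 months 2831. With that replicate block B2M was -3.45 (limma adjusted p = 0.0646) and -2.42 (0.0761) in these contrasts, CSF1R 1.81 (0.272) in adults against 1 month. C1QA was -0.45 from 1 to 2 months, C3 0.25 from 2 to 3 months and -0.74 to adulthood, and C1QC -0.040 in adults against 1 month. The block could not be fitted for immune-like cells, which left no residual degrees of freedom, nor for the changes to immune-like cells, where the library is a block already. Without mouse replicate 1 these had no value. The 80 mouse immune-like cells limit what could be seen there.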

Other observations

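The genes without a named opossum feature, CSF1, IL34, C1QB and TYROBP, were looked up in RefSeq's opossum gene table, which is of another assembly and served for names and neighbours only. It lists C1QB beside C1QC and C1QA, and it lists IL34 and TYROBP. No unnamed feature of the deposited tables was assigned to any of the 4 genes.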
